A study of Mus musculus with 6 samples.

Results

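The receptor tyrosine kinases of the colonic crypt were followed as 10 genes: *Ntrk2*, *Egfr*, *Erbb2*, *Erbb3*, *Met*, *Insr*, *Ephb2*, *Ephb3*, *Epha2* and *Fgfr3*. They were taken by gene name from the 18049 genes of the crypt RNA-Seq table, with no threshold on their values. Earlier results of these data were known when the receptors were chosen. All 10 were among the 16670 genes tested, those that reached a level of 0.1 in 3 or more of the 6 libraries. Both groups were mice of 1 Lynch syndrome model on a C57BL/6J background. These animals carry Cre under the Villin promoter, which is active in intestinal epithelium, and a humanized knock-in of *TgfβRII* with a poly(A) microsatellite, and control and treated mice had the same genotype. All mice received a Western-style diet from 8 weeks of age. The 3 control mice were injected in the tail vein with 20% captisol in PBS, and the 3 treated mice with GSK503 at 200 µg/kg, for 9 weeks in all. GSK503 inhibits EZH2, the subunit of Polycomb repressive complex 2 that methylates histone H3 and so keeps genes silent. The age at which crypts were taken is not given in the sources used here.

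A receptor tyrosine kinase spans the plasma membrane, binds its ligand outside the cell and, once paired with a second receptor, phosphorylates tyrosines inside it, where adaptors such as GRB2 and GAB proteins dock and pass the signal to the RAS-MAPK and PI3K-AKT pathways. In the crypt, ErbB receptors sustain proliferation and repair in response to EGF-family ligands from the stroma and from the epithelium itself. EPHB2 and EPHB3 are Wnt target genes that hold progenitors near the crypt base by repulsion from ephrin-B ligands on differentiated cells. MET is the receptor of hepatocyte growth factor, the insulin receptor binds insulin, and FGFR3 is a receptor of fibroblast growth factors. *Ntrk2* encodes TrkB, the receptor of brain-derived neurotrophic factor, best known from neurons.

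Levels are CPM, estimated counts scaled to a common library size by the trimmed mean of M values (TMM), as the authors deposited them, and mean ± SD is over n = 3 mice. Differences are log2FC, GSK503 minus control, on log2(level + 0.1), from limma with Benjamini-Hochberg adjustment over the 16670 genes, and a gene was called at an adjusted p below 0.05. Each library held an estimated 108162849 to 135085032 counts, and 3 counts corresponded to between 0.0228 and 0.0271 CPM, a floor that covers counting error only. Nothing in the labels says that mice of a group came from separate litters or days, so p-values measure the spread between these mice. Control and treated libraries also differed in sex-linked RNA. *Xist*, transcribed from the inactive X chromosome, was at 0.419 to 0.936 CPM in the control libraries and at 825.2 to 1236 CPM in the treated ones, whereas the Y-linked *Uty*, *Ddx3y*, *Eif2s3y* and *Kdm5d* lay between 42.5 and 91.7 CPM in the controls and at 1.082 CPM or below after treatment. The labels give no sex and the study's methods describe both sexes, so treatment and this X- and Y-linked difference cannot be told apart in any comparison of the groups. The summed level of 7 epithelial markers overlapped between the groups, at 12000 to 13480 CPM in controls and 12990 to 15120 CPM in treated mice. Secretory genes did not overlap: 8 goblet and deep crypt secretory markers summed to 10840 to 19240 CPM in controls and 34060 to 52430 CPM in treated mice, with 5 of 8 called higher. Smooth muscle markers summed to 22.3, 92.8 and 48.6 CPM in controls and to 5.07, 4.76 and 125.6 CPM in treated mice. Treated mice 1 and 2 lay below every control and treated mouse 3 above every control.

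Polycomb repressive complex 2 is found in mammals mainly at promoters rich in the dinucleotide CG, so the CG content of the receptors' promoters is given first. RefSeq (GRCm38.p6, an earlier build than the GRCm39 of the expression table) provided windows for 8 of the 10 receptors, and 250 bases before the start of each were read. The sequences of *Ntrk2*, chr13:58806319-58806568 on the plus strand, and *Erbb2*, chr11:98412234-98412483 on the plus strand, are shown because these were the receptors with the smallest p-values among those with a window. Capitals mark each CG, which reads the same on both strands.
Ntrk2: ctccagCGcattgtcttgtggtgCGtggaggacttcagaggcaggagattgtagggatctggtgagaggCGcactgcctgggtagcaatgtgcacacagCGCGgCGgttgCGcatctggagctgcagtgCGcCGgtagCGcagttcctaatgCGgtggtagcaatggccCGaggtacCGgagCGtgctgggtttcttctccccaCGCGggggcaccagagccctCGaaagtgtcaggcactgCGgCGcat
Erbb2: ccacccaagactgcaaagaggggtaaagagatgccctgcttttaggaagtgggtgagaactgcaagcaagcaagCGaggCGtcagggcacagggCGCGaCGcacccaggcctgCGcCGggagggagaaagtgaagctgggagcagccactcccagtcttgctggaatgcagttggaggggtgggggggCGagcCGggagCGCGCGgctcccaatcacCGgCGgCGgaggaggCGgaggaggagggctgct
The *Ntrk2* window held 19 CG and the *Erbb2* window 16, and 19.7% and 25.4% of the 32851 promoter windows of the same length held as many or more. *Met* had 24, *Ephb2* 20, *Ephb3* 16, *Egfr* 11 and *Epha2* 9, and the windows at the 2 annotated starts of *Fgfr3* held 19 and 24. The median over all windows was 6, so each receptor with a window lay above it, the uncalled ones as well as *Ntrk2*.

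*Ntrk2* was the only one of the 10 receptors called after GSK503, and it was lower. This is 1 of 10, where 0.642% of all tested genes were called, 0.144% lower and 0.498% higher. The lower level of *Ntrk2* was known when the receptors were chosen, so these shares are a description. No receptor was called higher. In control mice 1, 2 and 3 it was at 30.4, 42.5 and 40.02 CPM, and in treated mice 1, 2 and 3 at 19.4, 18.5 and 15.6 CPM. All 3 treated mice lay below all 3 controls, and the spread among treated mice was the narrower. The mean fell from 37.6 ± 6.42 to 17.8 ± 2.002 CPM, a level 2.11-fold higher in controls, with a log2FC of -1.07 (SE 0.14, 95% interval -1.38 to -0.75, adjusted p = 0.0136). An exact two-sided permutation test gave p = 0.1, the smallest that 3 mice against 3 allow. The direction was the same without any 1 mouse, with log2FC between -1.21 and -0.97, but the call was lost without control mouse 2 (adjusted p = 0.0592), control mouse 3 (0.0537) or treated mouse 2 (0.0685), and also without the intensity trend in the variance (0.191) or with the replicate number as a block (0.0673). In bulk crypts, fewer *Ntrk2*-expressing cells and less *Ntrk2* RNA per cell cannot be told apart.

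**Figure D1:**
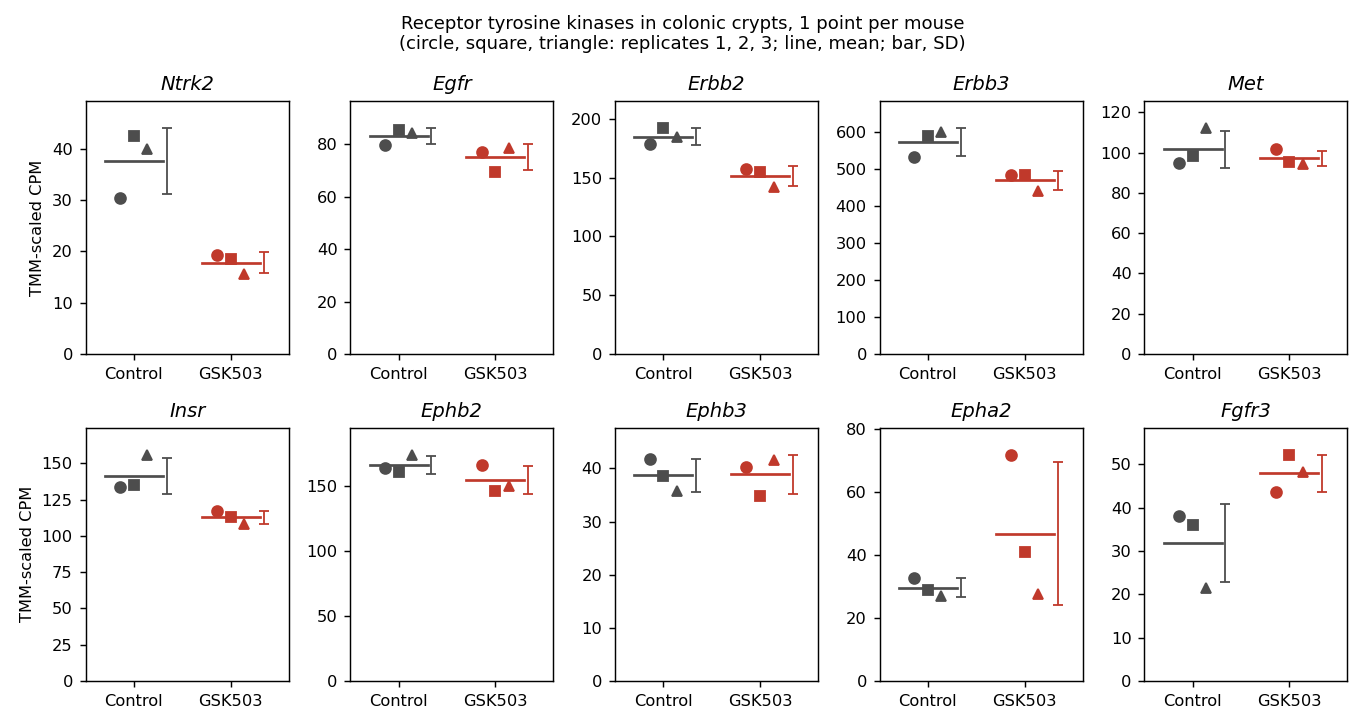
Level of each of the 10 receptors in every mouse, in TMM-scaled CPM from 0 (y axis), for the 3 control and 3 GSK503-treated mice (x axis); symbols are replicates 1, 2 and 3, lines are means and bars are SD. *Ntrk2*, *Egfr*, *Erbb2*, *Erbb3* and *Insr* lie lower in the treated mice with no overlap, *Fgfr3* lies higher, and *Met*, *Ephb2*, *Ephb3* and *Epha2* overlap.

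Markers of enteroendocrine cells, the hormone-secreting cells of the crypt, summed to 203.8 to 252.9 CPM in controls and 130.8 to 166.4 CPM in treated mice. Of the 9 markers, 7 were lower and 2 higher on average, with 3 called lower and 0 called higher. Enteric neuron markers did not move together: of 6, 3 were higher and 3 lower on average, with a median log2FC of 0.17 and none called. Their sum was 8.59, 11.3 and 12.1 CPM in controls and 6.99, 6.93 and 8.10 CPM in treated mice, most of it from *Ret*, itself a receptor tyrosine kinase of the pathway lists. Without *Ret* the groups overlapped, at 1.32, 3.28 and 2.29 CPM and 2.07, 2.15 and 5.22 CPM. Enteric glial markers overlapped at 0.779 to 1.47 and 1.24 to 2.57 CPM. No gene of these lists was at 0 in all libraries, *Foxd3* was not analysed here, and the part of these cell types in the *Ntrk2* result was not tested.

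*Ntrk2* spans 58954176 to 59281784 on the plus strand of chromosome 13 (GRCm39) and has 40 annotated transcripts, which include the full-length receptor and forms without the kinase domain. Its exons together cover 29.9 kb, whereas the canonical transcript has 9.05 kb, so the level per length depends strongly on which is used: 4.16 ± 0.709 CPM per canonical kb in controls but 1.26 per kb of all exons. The gene-level estimate does not separate these forms.

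The genes with profiles closest to *Ntrk2* over the 6 libraries were sought among all tested genes, by the root mean square difference between centred log2 profiles. *Scn3a*, a voltage-gated sodium channel subunit, came first at 0.115. Its levels were 2.75, 4.56 and 3.54 CPM in controls and 1.98, 1.86 and 1.65 CPM after treatment (log2FC -0.92, adjusted p = 0.142). *Fzd3*, a Frizzled receptor, followed at 0.146, with 16.8, 24.4 and 27.9 CPM in controls and 13.7, 12.8 and 10.8 CPM after treatment (log2FC -0.86, adjusted p = 0.0753). *Gulp1*, an adaptor of engulfment, came next at 0.160 (log2FC -0.95, adjusted p = 0.132). *Abcb11* and *Kif7* completed the nearest 5 at 0.162 and 0.173, but both stayed below 0.31 CPM in every library. None of these genes passed the threshold, and their likeness over 6 libraries is a description.

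The ErbB receptors *Erbb2* and *Erbb3* were each lower in every treated mouse, by similar proportions, and neither was called. *Erbb3* (chromosome 10, 128403392 to 128425811, minus strand), the kinase-impaired receptor that binds neuregulins and signals through its partner, was the most abundant of the 10: it was at 530.8, 588.1 and 600.5 CPM in controls and at 483.4, 482.8 and 439.6 CPM in treated mice. Its mean went from 573.2 ± 37.2 to 468.6 ± 25.1 CPM, with a log2FC of -0.29 (95% interval -0.48 to -0.10, adjusted p = 0.177). *Erbb2* (chromosome 11, 98303203 to 98328542, plus strand), the ligand-less partner of the other ErbB receptors, was at 178.6, 192.3 and 184.3 CPM in controls and at 157.0, 155.1 and 141.8 CPM in treated mice. The groups were apart here as well, with a log2FC of -0.29 (95% interval -0.45 to -0.13, adjusted p = 0.116). *Erbb2* overlaps *Mien1* on the opposite strand, and whether counting used strand is not given in the sources used here. *Egfr* (chromosome 11, 16702198 to 16868158, plus strand), the receptor of EGF, was at 79.8, 85.6 and 84.3 CPM in controls and 77.1, 69.4 and 78.5 CPM in treated mice. The gap between its groups was narrow, with a log2FC of -0.15 (95% interval -0.32 to 0.02, adjusted p = 0.442).

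Ratios between receptors were also taken within each library, where scaling cancels, and each restates the difference between the log2FC of its genes. *Erbb3* was at 2.97, 3.06 and 3.26 times the *Erbb2* level in controls and at 3.08, 3.11 and 3.10 times in treated mice, a log2 difference of 0.00, as their log2FC of -0.29 each imply. The ratio of *Egfr* to *Erbb2* was 0.447, 0.446 and 0.458 in controls and 0.492, 0.448 and 0.554 in treated mice. The log2 difference was 0.14 (exact permutation p = 0.2, adjusted over 4 ratios 0.4). With 3 mice a group this test cannot give a p below 0.1, so no ratio could pass the threshold. Among the 45 pairs of receptors, *Erbb2* and *Erbb3* also had the closest profiles over the 6 libraries, with a root mean square difference of 0.0396 on the log2 scale. *Met* and *Ephb2* followed at 0.0567, and *Erbb3* and *Insr* at 0.0606.

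*Insr*, the insulin receptor, had a lower range in treated mice with no overlap and was not called. The gene overlaps *Vmn2r-ps88* on the opposite strand. It was at 133.5, 134.8 and 156.0 CPM in controls and at 117.4, 113.0 and 108.2 CPM in treated mice. The mean went from 141.4 ± 12.7 to 112.9 ± 4.63 CPM, with a log2FC of -0.32 (95% interval -0.51 to -0.14, adjusted p = 0.123). Its close relative *Igf1r*, the receptor of insulin-like growth factors, was the only gene of the wider pathway lists to be called, and is described with them. The ratio of *Insr* to *Igf1r* was 3.12, 3.17 and 3.35 in controls and 3.59, 3.52 and 3.42 in treated mice, a log2 difference of 0.13 with no overlap (exact permutation p = 0.1, adjusted over 4 ratios 0.4).

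*Erbb2*, *Erbb3* and *Insr* depended on the scaling of the libraries. With scaling by library size alone they were called, with log2FC of -0.41, -0.40 and -0.44 (adjusted p = 0.0294, 0.0460 and 0.0383), and *Ntrk2* remained called at -1.18 (adjusted p = 0.00698). That scaling moved the median log2FC of all tested genes to -0.12, and relative to this median the 3 differences were -0.29, -0.29 and -0.32, as with the TMM scaling. Markers of proliferating cells summed to 1269 to 1421 CPM in controls and 1013 to 1221 CPM in treated mice, with no overlap. Of these, 3 of 7 were higher and 4 lower on average, with a median log2FC of -0.03 and none called. *Mki67* and *Top2a* were lower in every treated mouse (log2FC -0.39 and -0.17, adjusted p = 0.1355 and 0.4169). Without *Mki67*, the most abundant of these markers, the sums overlapped, at 622.9 to 653.5 CPM and 535.9 to 647.7 CPM. The part of proliferating cells in the 3 receptors was not tested.

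**Figure D2:**
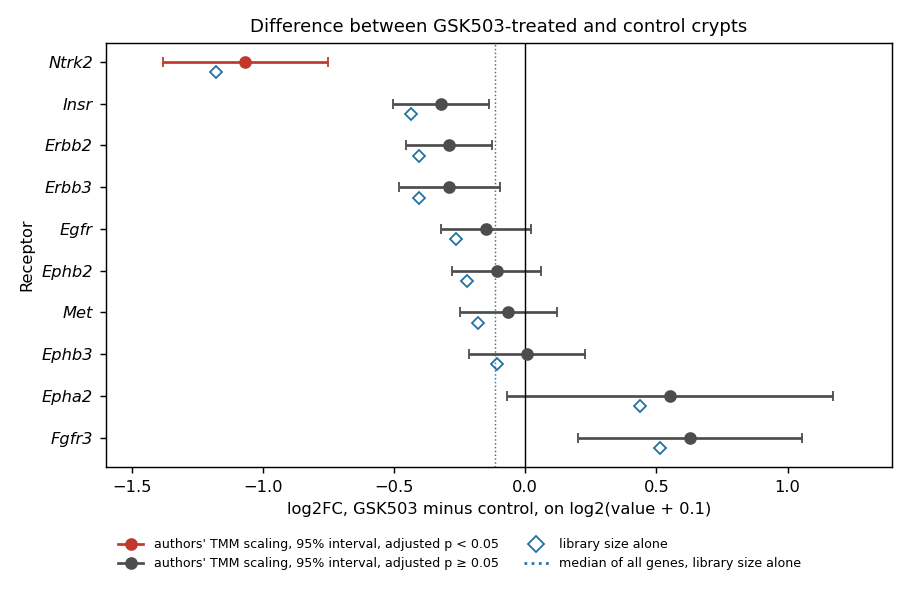
Difference of each receptor (y axis) as log2FC, GSK503 minus control, on log2(level + 0.1) (x axis). Each is drawn with its 95% interval under the authors' TMM scaling and its value under scaling by library size alone. The interval of *Ntrk2* runs from -1.38 to -0.75, and *Fgfr3* and *Epha2* have the widest intervals.

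*Met* (chromosome 6, 17463749 to 17573979, plus strand), the receptor of hepatocyte growth factor, was at 94.9, 98.2 and 112.2 CPM in controls and at 101.6, 95.2 and 94.3 CPM in treated mice. The groups overlapped, with a log2FC of -0.07 (95% interval -0.25 to 0.12, adjusted p = 0.788). Taken within libraries, *Insr* per canonical kb exceeded *Met* per canonical kb in 3 of 3 controls and in 0 of 3 treated mice, an order noticed in the values and not tested. It depends on the length used, since per kb of all exons *Insr* was below *Met* in every library, at 9.69 to 11.3 against 12.3 to 14.5 CPM per kb in controls and 7.85 to 8.52 against 12.2 to 13.2 CPM per kb in treated mice.

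Neither of the Eph receptors that position progenitors was called. *Ephb2* was at 163.8, 161.0 and 174.0 CPM in controls and at 166.5, 146.4 and 149.9 CPM in treated mice (log2FC -0.11, 95% interval -0.28 to 0.06, adjusted p = 0.577). *Ephb3* was at 41.8, 38.6 and 35.7 CPM in controls and at 40.3, 34.7 and 41.7 CPM in treated mice (log2FC 0.01, 95% interval -0.22 to 0.23, adjusted p = 0.985). Both pairs of ranges overlapped, and the ratio of *Ephb3* to *Ephb2*, at 0.205 to 0.255 in controls and 0.238 to 0.278 in treated mice, overlapped as well (log2 difference 0.12, exact permutation p = 0.5). Summed crypt base and Wnt target markers, to whose cells these receptors belong, also overlapped, at 404.1 to 438.5 CPM in controls and 350.3 to 434.1 CPM in treated mice.

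*Epha2*, an Eph receptor of ephrin-A ligands in epithelia, was the most variable receptor. It was at 32.8, 29.0 and 26.8 CPM in controls and at 71.8, 40.9 and 27.4 CPM in treated mice, so that treated mouse 1 was far above the rest and treated mouse 3 lay within the control range. The coefficient of variation in the treated group was 48.7%, and the log2FC of 0.55 had an interval from -0.07 to 1.17 (adjusted p = 0.438). Without treated mouse 1 the log2FC was 0.19, and without treated mouse 3 it was 0.88 (adjusted p = 0.0863). Markers of crypt top colonocytes, the mature absorptive cells, summed to 6424, 4304 and 2981 CPM in treated mice 1, 2 and 3 against 3865 to 4014 CPM in controls. *Car1* carried most of this order, at 4019, 2069 and 954.2 CPM, and without it the treated sums were 2406, 2235 and 2026 CPM. The order of *Epha2* over the treated mice was shared by 4 of the 9 markers, while *Car4* ran the other way at 226.7, 309.4 and 351.6 CPM, and the part of these cells was not tested.

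*Fgfr3* was the 1 receptor that was higher in every treated mouse, without being called. It was at 38.2, 35.9 and 21.5 CPM in controls and at 43.6, 52.1 and 48.1 CPM in treated mice. Control mouse 3 was well below the other controls, and the log2FC of 0.63 (95% interval 0.20 to 1.06, adjusted p = 0.188) became 0.37 without it. The goblet and deep crypt secretory markers given above were higher in the same treated mice, as were tuft cell markers, at 26.4 to 40.9 CPM in controls and 50.6 to 59.1 CPM in treated mice, and their part was not tested.

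Over the 10 receptors, 5 had all treated mice below all controls and 1 had them all above. Of all tested genes, 9.22% lay below in this way and 9.84% above, 19.1% in either direction. At an unadjusted p below 0.05, 4 receptors were lower and 1 higher, where 6.27% of all genes passed lower, 7.06% higher and 13.3% in either direction. The median log2FC of the 10 receptors was -0.13, and that of all tested genes -0.01. As the receptors were chosen with earlier results of these data known, these counts and shares are a description.

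Levels of different receptors were compared per kb of the canonical transcript. *Erbb3* led at 95.03 ± 6.17 CPM per kb in controls and 77.7 ± 4.16 CPM per kb in treated mice. *Erbb2* was second at 36.2 ± 1.35 and 29.6 ± 1.63 CPM per kb, with no overlap between the control ranges of these receptors or between those of *Erbb2* and *Ephb2*. *Ephb2*, *Insr* and *Met* lay together in controls, at 15.2 ± 0.626, 15.1 ± 1.35 and 14.8 ± 1.34 CPM per kb, and neighbours in this order did not differ beyond their spread. In treated mice the same genes were at 14.1 ± 0.981, 12.0 ± 0.493 and 14.2 ± 0.576 CPM per kb. *Ephb3*, at 9.23 ± 0.726 CPM per kb in controls, lay above *Egfr* at 8.14 ± 0.296 without overlap. This order depends on the length used, since per kb of all exons their control means were 5.59 and 7.20 CPM per kb. *Egfr*, *Fgfr3* at 7.55 ± 2.14 and *Epha2* at 7.52 ± 0.767 CPM per kb overlapped in neighbouring pairs. In treated mice *Fgfr3* and *Epha2* were at 11.4 ± 1.01 and 11.9 ± 5.80 CPM per kb and *Egfr* at 7.34 ± 0.481. Per kb of all exons, the treated means of *Fgfr3*, *Epha2* and *Egfr* were 5.43, 9.97 and 6.49 CPM per kb. *Ntrk2* was last, at 4.16 ± 0.709 CPM per kb in controls and 1.97 ± 0.221 in treated mice.

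**Figure D3:**
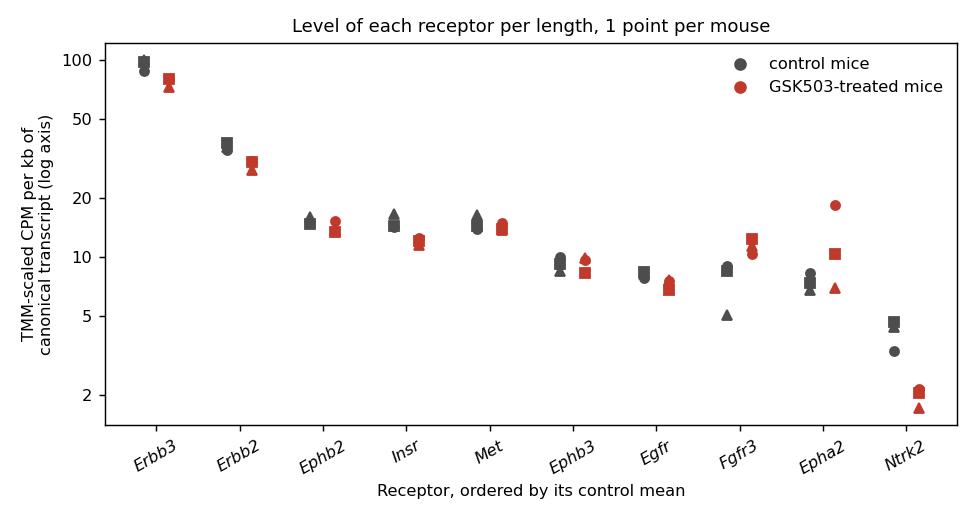
Level of each receptor (x axis) in TMM-scaled CPM per kb of its canonical transcript, on a log axis (y axis), with 1 point per mouse. *Erbb3* stands highest and *Ntrk2* lowest in both groups, and the treated mice of *Ntrk2* lie below its controls.

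By level in CPM, *Erbb3* ranked at the 99.0 percentile of the tested genes in controls, and *Erbb2*, *Ephb2* and *Insr* at the 94.7, 93.8 and 92.4 percentiles. *Ntrk2* went from the 69.5 to the 54.2 percentile, while *Fgfr3* went from 65.6 to 74.6. *Erbb3* made up 40.1%, 41.8% and 41.8% of the summed CPM of the 10 receptors in controls and 37.8%, 39.96% and 38.4% in treated mice, and *Ntrk2* between 2.29% and 3.03% in controls and between 1.36% and 1.53% in treated mice.

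Ligands, coreceptors, adaptors and inhibitors of these receptors, together with the other receptor tyrosine kinases, formed 9 lists with 159 genes, of which 148 were in the table and 141 were tested. Of these, 1 gene was called lower, *Igf1r*, and none higher, where 0.144% of all tested genes were called lower and 0.642% in either direction. The lists too were chosen with earlier results of these data known. Treated mice lay all below the controls for 13.5% of the 141 genes and all above for 9.93%, beside the 9.22% and 9.84% of all tested genes. These shares are a description, as they count genes that passed the filter only through the group where they were high. Among them, *Musk*, *Epha10*, *Fgf18* and *Ntf5* did so through the treated mice and *Bdnf* through the controls. The median log2FC of the lists together was -0.03.

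Of the other receptor tyrosine kinases, 42 of 48 were tested, with a median log2FC of -0.07. *Igf1r* was at 42.8, 42.5 and 46.5 CPM in controls and at 32.6, 32.0 and 31.6 CPM in treated mice. Both groups were tight and far apart, and the log2FC was -0.45 (SE 0.08, adjusted p = 0.0415). The call was lost when any 1 of the 6 mice was left out, with adjusted p between 0.0577 and 0.216. Among the rest, 3 were higher and 4 lower in every treated mouse, and none was called. Of all tested genes, 9.84% lay above in this way and 9.22% below. *Musk* and *Epha10*, among the 3, were at 0 to 0.157 CPM in controls and 0.102 to 0.279 CPM in treated mice. Both passed the filter only through the treated mice, so their direction carries no weight.

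Ligands of TrkB were at low levels in crypts. *Bdnf* averaged 0.167 CPM in controls and 0.0794 CPM in treated mice, and *Ntf5*, which encodes the other TrkB ligand, 0.0520 and 0.163 CPM, with adjusted p of 0.631 and 0.517. *Bdnf* passed the filter only through the controls and *Ntf5* only through the treated mice, so their directions carry no weight. None of the 8 tested of 13 neurotrophin ligands and coreceptors was called. *Sort1*, which encodes the neurotrophin precursor receptor sortilin, was abundant, at 502.8, 526.2 and 530.7 CPM in controls and 441.4, 455.2 and 466.9 CPM in treated mice (log2FC -0.19, adjusted p = 0.304). *Sorcs3*, a gene of the same receptor family, was at 0, 0.326 and 0.299 CPM in controls and at 0.466, 0.359 and 0.766 CPM in treated mice (log2FC 1.24, adjusted p = 0.421), apart in the opposite direction. *Kidins220*, a scaffold of Trk receptors, was at 153.0 to 161.5 CPM in controls and 154.6 to 157.4 CPM in treated mice (log2FC -0.01, adjusted p = 0.956).

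EGF-family ligands were not called in any of 10 tested genes, with a median log2FC of 0.03. *Hbegf*, which encodes heparin-binding EGF, was at 137.7, 110.9 and 120.1 CPM in controls and at 103.2, 80.2 and 60.4 CPM in treated mice. These ranges were apart, with a log2FC of -0.62 (adjusted p = 0.143). *Areg*, the amphiregulin gene, was at 28.9 to 31.8 CPM in controls and at 54.9, 25.3 and 21.1 CPM in treated mice (log2FC 0.03, adjusted p = 0.979), high in the same treated mouse 1 as *Epha2*. *Nrg1*, which encodes a ligand of *Erbb3*, was at 0.551 to 2.85 CPM in controls and 0.144 to 0.990 CPM in treated mice, which overlapped (log2FC -1.56, adjusted p = 0.353). Among the 5 genes for shedding of these ligands, all tested and none called, *Adam10* was at 128.6, 137.3 and 174.7 CPM in controls and 128.7, 115.6 and 107.8 CPM in treated mice (log2FC -0.31, adjusted p = 0.291). *Rhbdf1* and *Rhbdl2*, both of the rhomboid family, had overlapping groups, with log2FC of -0.12 and 0.05 (adjusted p = 0.675 and 0.862).

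For *Met*, the ligand and an inhibitor of its activation lay in opposite directions, neither called. *Hgf*, a stromal product, was at 2.56, 1.28 and 4.37 CPM in controls and at 0.754, 0.319 and 0.424 CPM in treated mice (log2FC -2.15, adjusted p = 0.0761). *Spint2*, which encodes an epithelial inhibitor of the proteases that activate HGF, was at 431.5, 447.9 and 420.4 CPM in controls and at 552.8, 557.4 and 540.7 CPM in treated mice (log2FC 0.35, adjusted p = 0.0754). The groups were apart for both genes. *St14*, the gene of the protease matriptase, overlapped at 511.8 to 579.8 and 501.0 to 560.1 CPM (log2FC 0.00, adjusted p = 0.987). All 9 genes of this list were tested, with a median log2FC of 0.09.

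None of the 8 ephrin genes was called, and no ephrin had groups that were apart. *Efnb2* was at 89.9 to 101.4 CPM in controls and 95.0 to 115.8 CPM in treated mice (log2FC 0.19, adjusted p = 0.421), and *Efnb1* at 104.5 to 109.6 and 105.9 to 116.9 CPM (log2FC 0.05, adjusted p = 0.814). The ephrin-A gene *Efna2* was at 0.221 to 0.452 CPM in controls and 0.416 to 0.543 CPM in treated mice (log2FC 0.58, adjusted p = 0.561). *Efna1* was at 35.4 to 54.4 CPM in controls and 34.4 to 47.6 CPM in treated mice (log2FC -0.07, adjusted p = 0.898). The list's median log2FC was 0.30, with 6 genes higher and 2 lower on average.

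Of 16 FGF ligands and coreceptors, 11 were tested and none was called, with a median log2FC of 0.01. *Fgf7*, a mesenchymal FGF, was at 0.479 to 0.898 CPM in controls and at 0 to 0.2496 CPM in treated mice (log2FC -1.90, adjusted p = 0.164), whereas *Fgf18* was at 0 to 0.0630 CPM in controls and 0.241 to 0.279 CPM in treated mice (log2FC 1.44, adjusted p = 0.204). Both were at low levels in each library. Every control level of *Fgf18* was below the filter level of 0.1, so this gene was tested only through the treated mice and its direction carries no weight. *Fgf1* was at 23.9 to 27.5 CPM in controls and 27.0 to 33.8 CPM in treated mice (log2FC 0.28, adjusted p = 0.314), and *Fgfbp1*, which encodes an FGF carrier protein, was at 149.2 to 199.1 and 150.3 to 186.9 CPM (log2FC 0.01, adjusted p = 0.979).

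Of the adaptors and proximal effectors, 29 of 30 were tested and none was called, with a median log2FC of -0.07. *Gab2*, a docking protein gene, was at 33.0, 27.3 and 30.2 CPM in controls and at 20.2, 22.5 and 24.2 CPM in treated mice (log2FC -0.43, adjusted p = 0.114). *Grb2*, which links the receptors to RAS, was at 34.9, 30.7 and 32.3 CPM in controls and at 27.2, 26.1 and 25.1 CPM in treated mice (log2FC -0.32, adjusted p = 0.148). Both were lower in every treated mouse, as were 2 others of the list, and 2 were higher. Of all tested genes, 9.22% lay below in this way and 9.84% above. Among 19 receptor-level negative regulators, all tested and none called, 3 were higher and 3 lower in every treated mouse, beside the same shares of all genes. *Errfi1*, a feedback inhibitor of ErbB kinases, was at 55.1, 50.6 and 50.2 CPM in controls and at 84.6, 63.7 and 57.1 CPM in treated mice (log2FC 0.38, adjusted p = 0.253). *Socs5*, which encodes a suppressor of EGFR signaling, was at 7.34, 8.22 and 8.66 CPM in controls and at 10.8, 9.40 and 13.6 CPM in treated mice (log2FC 0.46, adjusted p = 0.256).

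**Figure D4:**
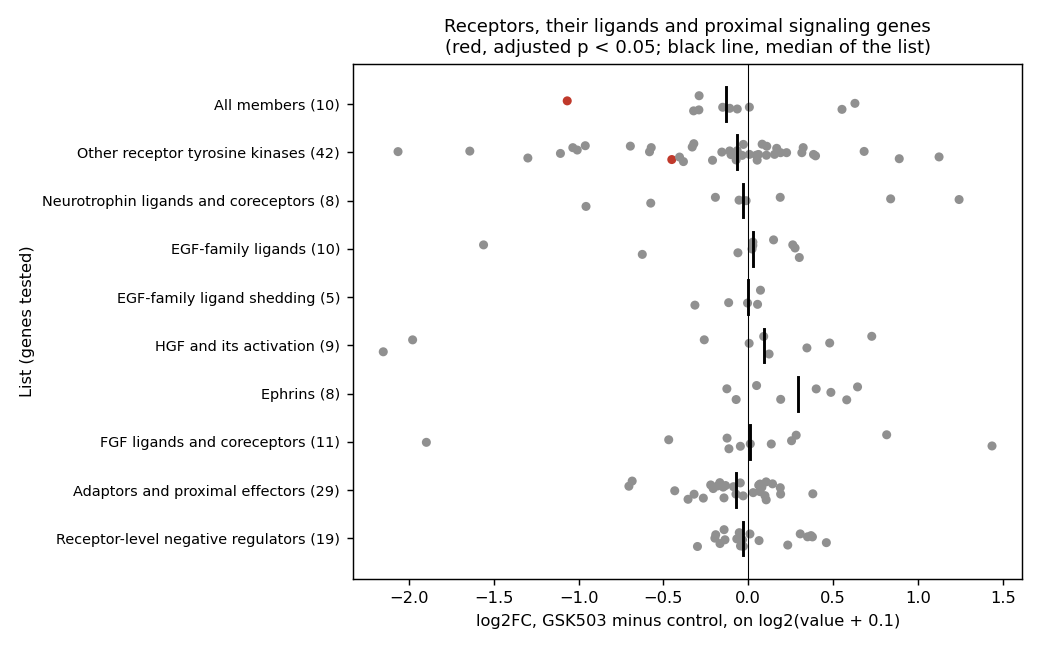
Log2FC of each tested gene, GSK503 minus control, on log2(level + 0.1) (x axis), for the 10 receptors and the 9 lists (y axis, with the number of genes tested); red points passed an adjusted p of 0.05 and black lines are list medians. The red points are *Ntrk2* and *Igf1r*, and the list medians lie between -0.13 and 0.30.

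**Figure D5:**
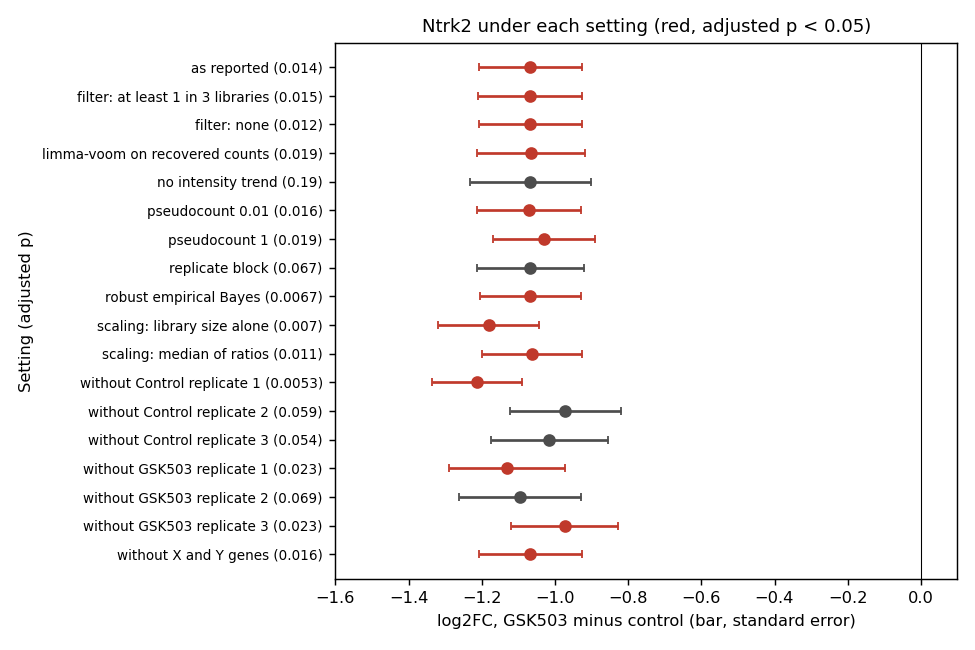
Log2FC of *Ntrk2*, GSK503 minus control (x axis), under the reported fit and each alternative (y axis, with the adjusted p), with bars for the standard error. The estimate is negative throughout, and the call is lost without the intensity trend (adjusted p = 0.191), with a replicate block (0.0673) and without any of 3 mice.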

How the data were processed

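Crypt RNA was sequenced as paired-end reads of 76 bp from a stranded total RNA kit, with 1 library per mouse. STAR was used by the authors for alignment (GRCm39), RSEM for gene-level count estimates and the TMM factors of edgeR for scaling. The deposited signal of a gene is thus TMM-scaled CPM and not a count, so a test of raw counts was not used. Depth was estimated from the smallest step between values, and floors cover counting error only. No 2 libraries held identical values.

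Groups were taken from the sample labels. An allele that both groups share and a marker gene are not reported here. All 16670 genes passing the filter (1379 left out) were fitted with limma 3.58.1 in R 4.3.3, as lmFit and eBayes with an intensity trend on log2(value + 0.1). The script was tested on simulated data. Ratios were compared by exact two-sided permutation. Lengths came from the GENCODE annotation of GRCm39, which matched 17212 of 18049 symbols (95.4%). Tables and figures used Python 3.11.15, pandas 2.3.3, scipy 1.17.1 and matplotlib 3.10.9.

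The receptors and the gene lists were chosen with earlier results of these data known. The text names the 10 receptors, every called gene of a pathway list, or its 2 smallest p-values where none was called, the ligands and coreceptors with the highest level per kb, the 5 genes most like *Ntrk2*, and X- and Y-linked and marker genes. *Bdnf* and *Ntf5* were added outside this rule as the TrkB ligands, after their values were seen. Alternatives were other scalings, filters and pseudocounts, limma-voom on recovered counts, no trend, robust empirical Bayes, a replicate block, no X and Y genes and leaving out each mouse.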

Additional observations from a re-analysis of the deposited data

How the results depend on the processing

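Each receptor was refitted under 17 alternatives, and 157 of the 170 values kept their direction and their side of the threshold. *Egfr*, *Ephb2*, *Epha2* and *Fgfr3* did so under every one, and were called under none. Their sizes still moved: without single mice the log2FC of *Epha2* lay between 0.19 and 0.88 and that of *Fgfr3* between 0.37 and 0.78. Of the 10 receptors, 4 were called with scaling by library size alone (the values are given above). Beside them, 261 of all 16653 genes tested were called under that scaling, 178 of them lower. No receptor was called without the intensity trend or with the replicate block, beside 16 and 33 of all 16670 genes. There limma gave 5 and 6 receptors an unadjusted p below 0.05, beside 5 in the reported fit. The share of all genes at that level is not given for these settings, so the counts are a description. Leaving out single mice gave between 0 and 1. *Ntrk2* was at -1.07 both without the trend (adjusted p = 0.191) and with the block (adjusted p = 0.0673), between -1.21 and -0.97 without single mice, and its adjusted p ranged from 0.00527 to 0.191 over the 17 alternatives. *Ephb3*, near 0 throughout, reversed to -0.11 with library size alone, to -0.0507 without control mouse 3, to -0.0215 without treated mouse 1 and to -0.0454 without treated mouse 3, with a highest value of 0.0856 without treated mouse 2, and *Met* reversed to 0.0074 without control mouse 3. The cause was not tested.

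Of the pathway genes, 0 were called without the trend or with the block. There 24 and 25 had an unadjusted p below 0.05 in limma, beside 31 in the reported fit, again without the share of all genes. With library size alone 7 were called (*Epha4*, *Gab2*, *Grb2*, *Hgf*, *Igf1r*, *Mertk* and *Ret*), and between 0 and 5 without single mice. The 5, all lower, came without treated mouse 3, the library with the highest smooth muscle markers. This left treated mice 1 and 2, whose summed smooth muscle markers lay below every control. The genes were *Axl*, *Ddr2*, *Kdr*, *Pdgfra* and *Plau*. The part of smooth muscle cells in these 5 calls was not tested. Over all genes, 107 were called, 261 with library size alone (83 higher and 178 lower, against 83 and 24), 16 without the trend, 33 with the block, and between 29 and 216 without single mice. Same-numbered mice did not deviate together (correlations of 0.032, -0.126 and -0.119), so the block rests on a shared number only. The exact tests of the 4 ratios could not pass the threshold with 3 mice a group, so their alternatives say nothing about stability. Depth sets a floor of 3 counts, which limits only genes near 0 such as *Fgf7*, *Fgf18*, *Bdnf* and *Ntf5*.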
